A study of Marchantia polymorpha and Arabidopsis thaliana with 54 samples.

Results

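The 26S proteasome is described here through the transcripts of 47 of its subunit genes in Arabidopsis thaliana, taken by gene identifier from an RNA-seq table of 27655 genes in 18 libraries. They comprise 23 genes of the 20S core particle, of which 12 encode alpha and 11 beta subunits, and 24 genes of the 19S regulatory particle, of which 11 encode RPT and 13 encode RPN subunits. All 47 passed the filter on low counts, and their lowest count in any library was 620, for PBE2. The libraries were made from total RNA of whole seedlings that were 7 days old and had grown on agar with 1% sucrose in continuous light at 22 °C. Wild-type Col-0 was sampled in control (6 libraries) and after 1 h at 37 °C (3 libraries). A line labelled eTK, given in its genotype label as a knockout of the heat shock factors HSFA1A, HSFA1B and HSFA1D, was sampled in the same way (6 control and 3 heat libraries). Replicates 1 to 3 of each group carry the label batch 1, and replicates 4 to 6 of both control groups carry batch 2, so heat was measured in batch 1 only.

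The 26S proteasome degrades proteins that carry chains of ubiquitin. Its barrel-shaped core is built of stacked rings: the alpha rings gate the entry, and the beta rings hold the active sites, which face the inner chamber. The regulatory particle caps the barrel, and its RPT subunits form an ATPase ring that unfolds substrates and threads them through the gate. Its RPN subunits bind ubiquitin, remove it, or hold the particle together. In plants most subunits are encoded by a pair of paralogous genes, and subunit genes are known to be induced together when proteasome activity is inhibited, through the transcription factors NAC053 and NAC078. Heat unfolds proteins and thereby adds to the substrates of this pathway, and heat shock factors of the HSFA1 class are early activators of the heat response.

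Levels are CPM, counts scaled to the library total with TMM factors (trimmed mean of M values), and differences as log2 fold changes with their standard error (SE) from an edgeR quasi-likelihood fit of all 18 libraries with a term for batch. A gene was called where p, adjusted over all 22696 genes tested (Benjamini-Hochberg), was below 0.05. Where groups of libraries are said not to overlap, the share of all genes for which this holds is not given. The scaling bears on every heat result. TMM factors averaged 0.655 for the Col-0 heat libraries, 1.11 for both control groups and 1.02 for eTK heat, and scaling by library size alone moved the median log2 change of all genes in Col-0 heat from -0.04 to -0.75. Relative to the median of all genes the median subunit stood 0.51 higher with TMM and 0.50 higher with library size alone. Scaling shifts all genes of a library alike, so this distance could hardly differ and favours neither scaling. Directions below are relative to the bulk of the transcripts. Of all counts the 47 genes together held 0.372% ± 0.031 (SD, n = 6) in wild-type control and 0.328% ± 0.037 (n = 3) in wild-type heat, and 0.378% ± 0.019 (n = 6) and 0.451% ± 0.010 (n = 3) in the corresponding eTK groups. In whole seedlings a change in the number of cells of a type and a change in RNA per cell cannot be told apart.

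The libraries held 58370609 to 110875442 counts. Of the targeted genes, HSFA1B was lower in eTK than in Col-0 in control (log2 -3.09 ± 0.14, adjusted p = 4.02e-12 by edgeR) and so was HSFA1D (-1.39 ± 0.078, adjusted p = 1.19e-10), whereas HSFA1A was higher (0.96 ± 0.12, adjusted p = 9.1e-06). The line is therefore called by its label. Leaf, root and seed marker lists moved with the groups as well. In Col-0 heat 4 of 6 shoot and 5 of 6 root markers were called lower and 1 shoot marker, RCA, higher (log2 0.85). Of all genes 32.4% were called lower and 31.2% higher. Summed levels were 18500 to 24100 CPM against 18000 to 23900 in control for shoot and 66 to 83.2 against 105 to 135 CPM for root. The shoot calls rest on the batch 1 controls. In Col-0 heat CAB3 (1250 to 1383 CPM) and PSAD1 (1005 to 1306) lay above all batch 2 controls (367 to 586 and 755 to 918). LHCB1.1, LHCB2.1 and RCA overlapped the batch 2 controls. In eTK heat the same numbers, 4 of 6 and 5 of 6, were called lower, where 28.7% of all genes were. Sums were 15500 to 17000 against 22700 to 25400 CPM for shoot and 77.6 to 84.4 against 104 to 120 CPM for root. Here too LHCB1.1, CAB3, LHCB2.1 and PSAD1 lay above all batch 2 controls of the line. In control 5 of 6 shoot markers were called higher in eTK than in Col-0, where 13.4% of all genes were. Of 5 seed markers 4 were called higher in eTK than in Col-0 in control, with sums of 5.12 to 57 against 0.135 to 2.7 CPM, and 4 were called higher in Col-0 heat, where the sum ran from 0.238 to 118 CPM. No marker was at 0 throughout a group. Their part in the subunit results was not tested.

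Levels were first compared between subunit positions, per kilobase of annotated exon and with paralogues among the 47 summed, since an assembled particle holds each subunit in a fixed proportion. The 14 core positions lay close together. In Col-0 control they ran from 61.4 CPM per kb at PBG1 to 119 at PAA, a 1.95-fold range. The 17 regulatory positions spread more widely, from 15.7 CPM per kb at RPN13, a ubiquitin receptor, to 90.8 at RPT1, a 5.78-fold range. RPN3a, RPN5a, RPN8a and RPN12a stand here without their second copies, which are given with the pathway lists below. Neighbours at the top of this order lay within their spread: PAA at 119 ± 8.7 (SD, n = 6) was followed by PAD at 98.4 ± 14, PBF1 at 97.9 ± 14 and PBC at 91.2 ± 12.

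**Figure D1:**
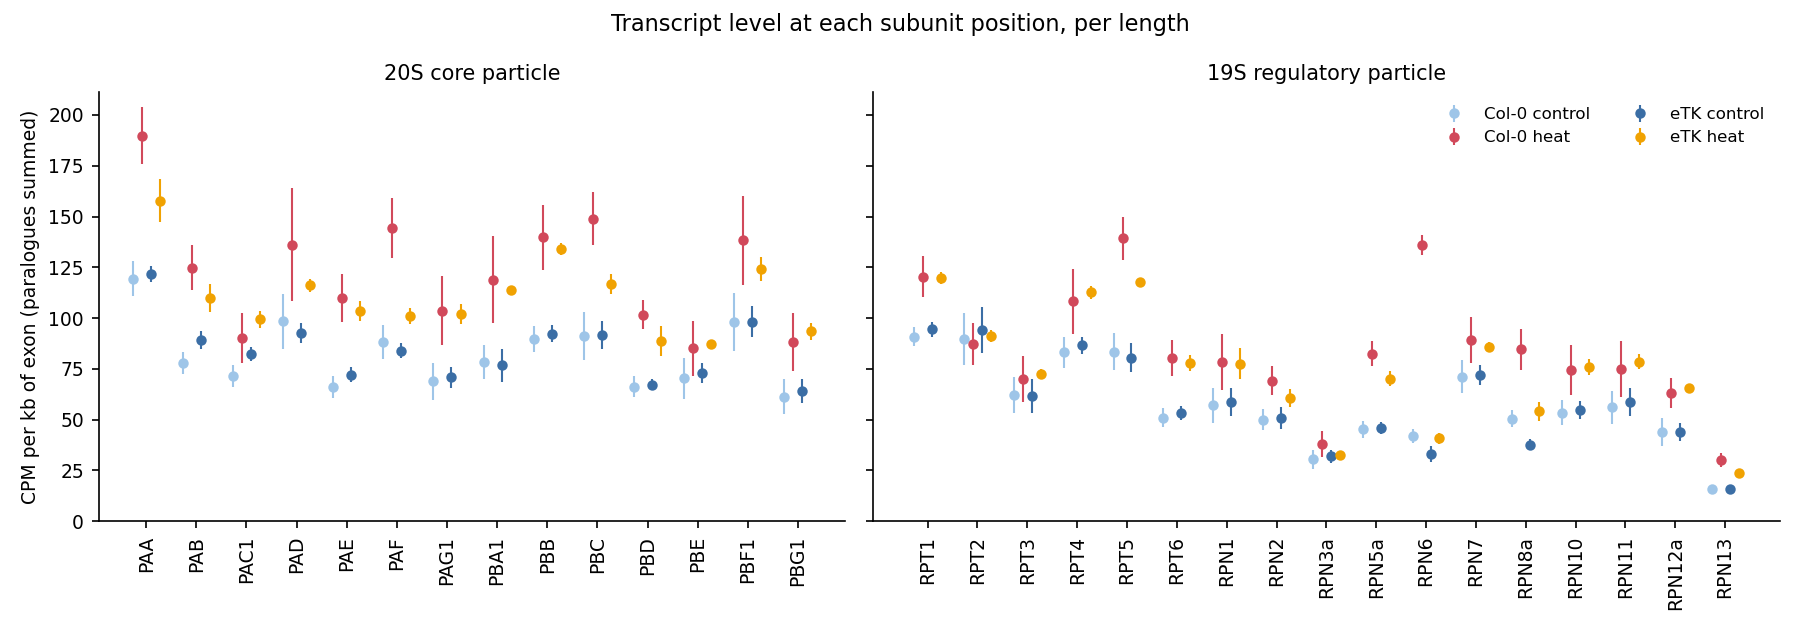
Transcript level at each subunit position in CPM per kilobase of exon, paralogues summed, as the mean and SD over libraries (6 per control group, 3 per heat group). RPN6 moves from rank 15 to rank 2 of the 17 regulatory positions in Col-0 heat and stays at rank 15 in eTK heat.

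In Col-0 heat 13 of the 14 core and 13 of the 17 regulatory positions changed rank, core positions by at most 4 places. RPN6 moved 13 places, and RPT3 came next with 7. RPN6, a scaffold subunit that clamps the regulatory particle onto the core, ranked 15 of 17 regulatory positions in Col-0 control at 42.0 CPM per kb, and 2 of 17 in Col-0 heat at 136 CPM per kb. In eTK it ranked 15 of 17 both in control (33.2 CPM per kb) and in heat (40.8 CPM per kb). RPN13 was the lowest regulatory position in all 4 groups, and PAA the highest core position in all 4.

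In Col-0, subunit transcripts of both particles were higher in heat relative to the bulk of transcripts. Of the 47 genes, 38 were called higher and 1 lower, where 31.2% of all genes tested were called higher and 32.4% lower. The median log2 change was 0.47 over the 47 genes and -0.04 over all genes. Scaled by library size alone, 3 of the 47 were called higher (RPN6, PBC2 and RPN13) and 26 lower. Of all 22696 genes, 1861 were then called higher and 15306 lower. Without Col-0 heat replicate 1 the number called higher was 31.

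RPN6 (AT1G29150) changed most. It stood at 78.4, 92.7 and 98.9 CPM (lowest, median and highest of 6) in Col-0 control and at 307, 289 and 287 CPM in the 3 heat libraries. No heat library overlapped the controls, and the log2 change was 1.59 ± 0.079 (adjusted p = 4.41e-12, edgeR), a 3.01-fold rise. It was also called higher by library size alone (0.87).

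PBC2 (AT1G77440), a copy of the beta ring subunit PBC, was the other member past 2-fold, which 9.14% of all genes reached upward. It stood at 27.6, 34.5 and 41.7 CPM (lowest, median, highest) in control and at 75.8, 84.7 and 73.2 CPM in heat, without overlap, a log2 change of 1.09 ± 0.088 (adjusted p = 5.15e-09). RPN13 (AT2G26590), which docks ubiquitin chains and a deubiquitinase, rose from 26.6, 30.9 and 32.5 CPM to 65.2, 56.6 and 53.0 CPM (log2 0.95 ± 0.078, adjusted p = 6.07e-09). Its heat libraries also lay above all controls.

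**Figure D2:**
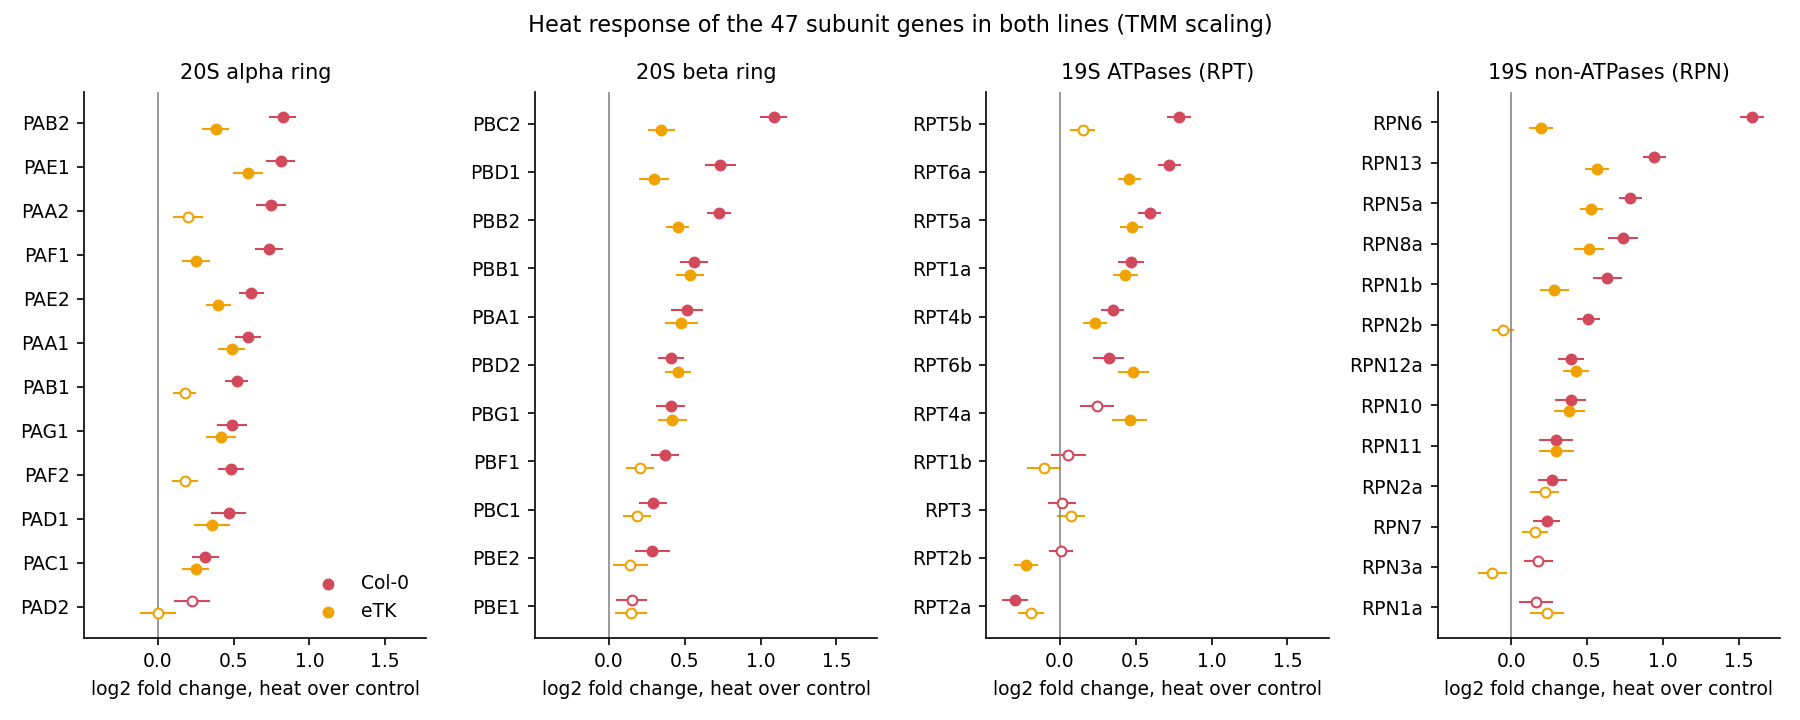
Log2 fold change in heat over control with its SE for each of the 47 genes, in Col-0 (red) and eTK (yellow), with TMM scaling. Filled points were called at an adjusted p below 0.05. Of the 47 genes 38 were called higher in Col-0 and 29 in eTK, and with library size alone these numbers were 3 and 21. Of all 22696 genes, library size alone called 1861 higher in Col-0 heat and 4971 in eTK heat.

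Sequence before the annotated gene start was read for the members that stood out: RPN6, PBC2 and RPN13, with the largest rises in Col-0, RPN1a and RPN1b, a pair of which 1 copy was called, and RPN8a, lower in eTK in control. It was searched for TGGGC (or GCCCA on the other strand), the letters of the element through which NAC053 and NAC078 are known to bind proteasome genes, and for the heat shock element, to which heat shock factors bind. The latter was written as GAANNTTC or TTCNNGAA, or in its longer form GAANNTTCNNGAA or TTCNNGAANNTTC, in which N is any base and which contains the shorter. Letters are from RefSeq, build TAIR10.1, 5′ to 3′ on the strand of the gene. Each line ends next to the gene start and holds the last 150 bases before it, or for RPN6 the 76 bases between it and the neighbouring gene. Capitals mark matches.
RPN6, chr1:10180226-10180301, plus strand: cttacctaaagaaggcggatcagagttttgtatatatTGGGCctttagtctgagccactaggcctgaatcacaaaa
PBC2, chr1:29095870-29096019, plus strand: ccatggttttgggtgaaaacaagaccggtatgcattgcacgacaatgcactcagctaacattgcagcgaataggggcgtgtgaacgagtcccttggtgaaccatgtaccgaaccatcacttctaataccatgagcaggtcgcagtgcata
RPN13, chr2:11315525-11315674, minus strand: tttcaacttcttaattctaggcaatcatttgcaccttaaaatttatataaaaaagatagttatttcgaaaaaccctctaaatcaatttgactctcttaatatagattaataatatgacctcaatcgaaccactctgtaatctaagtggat
RPN1a, chr2:8858812-8858961, plus strand: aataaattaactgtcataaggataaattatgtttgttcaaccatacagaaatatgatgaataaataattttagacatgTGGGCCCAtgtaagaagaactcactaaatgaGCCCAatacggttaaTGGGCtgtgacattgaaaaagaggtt
RPN1b, chr4:14072583-14072732, minus strand: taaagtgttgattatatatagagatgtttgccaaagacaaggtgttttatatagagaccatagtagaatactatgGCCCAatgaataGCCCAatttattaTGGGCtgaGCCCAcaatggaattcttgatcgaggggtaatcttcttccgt
RPN8a, chr5:1735575-1735724, plus strand: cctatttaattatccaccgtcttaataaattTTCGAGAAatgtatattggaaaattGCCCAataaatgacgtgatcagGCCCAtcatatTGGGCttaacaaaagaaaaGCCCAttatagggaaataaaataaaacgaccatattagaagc

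The TGGGC letters stand once before RPN6, several times before RPN1a, RPN1b and RPN8a, and not in the lines of PBC2 and RPN13. The capital run of RPN1a holds both strands of the motif overlapping. Over the 250 bases before each gene start, 22 of the 47 genes held TGGGC (46.8%), where 22.7% of 27444 nuclear genes did, and 17 held it at least 2 times. By class it stood before 7 of 11 beta, 5 of 12 alpha, 4 of 11 RPT and 6 of 13 RPN genes. The shorter heat shock element stood before 6 of 47 (12.8%), where 16.1% of nuclear genes held it, and the longer before 1 of 47, RPN5a, where 0.4% did. Of the 47 windows 21 reach into an annotated neighbouring gene. A match describes letters and not binding.

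In the alpha ring 11 of 12 genes were called higher in Col-0 heat with TMM, where 31.2% of all genes were. PAD2 was not (log2 0.22 ± 0.12, adjusted p = 0.107). With library size alone 1 of the 23 core genes was called higher and 10 lower, where 1861 and 15306 of 22696 genes were. PAB2 (AT1G79210) stood at 33.5, 39.7 and 41.3 CPM in control and at 64.2, 78.0 and 63.3 CPM in heat (log2 0.82 ± 0.089, adjusted p = 2.27e-07). PAE1 (AT1G53850) stood at 36.2, 40.8 and 42.7 CPM in control and at 68.7, 80.5 and 59.8 CPM in heat (0.81 ± 0.097, adjusted p = 8.8e-07). Neither overlapped between control and heat. PAD1 rose by 0.47 ± 0.12 (adjusted p = 0.00206) while its copy PAD2 was not called, and PAC1 and PAG1, single-copy alpha subunits, rose by 0.31 ± 0.090 and 0.49 ± 0.099 (adjusted p = 0.00514 and 0.000304).

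The beta ring had 10 of 11 genes called higher with TMM, where 31.2% of all genes were. Among the catalytic subunits, PBA1 carries the caspase-like site, PBB1 and PBB2 the trypsin-like site, and PBE1 and PBE2 the chymotrypsin-like site. PBA1 (AT4G31300) stood at 73.9, 91.8 and 102 CPM in control and at 166, 133 and 118 CPM in heat (log2 0.52 ± 0.11, adjusted p = 0.000436). PBB1 (AT3G27430) went from 76.6, 89.6 and 96.1 CPM to 158, 121 and 119 CPM (0.56 ± 0.093, adjusted p = 3.69e-05), and PBB2 (AT5G40580) from 33.3, 38.2 and 40.3 CPM to 64.2, 67.7 and 59.4 CPM (0.73 ± 0.076, adjusted p = 1.59e-07). These did not overlap between control and heat.

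The chymotrypsin-like subunit changed least among the catalytic ones. PBE1 (AT1G13060) stood at 66.7, 90.9 and 99.5 CPM in control and at 125, 98.0 and 90.8 CPM in heat, overlapping, and was not called (log2 0.15 ± 0.10, adjusted p = 0.215). PBE2 (AT3G26340), its minor copy, stood at 11.9, 16.3 and 17.7 CPM in control and at 21.7, 22.5 and 16.4 CPM in heat, also overlapping, and was called higher (0.29 ± 0.11, adjusted p = 0.0336). Whether the catalytic subunits differ from each other was not tested.

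The ATPase ring was less uniform. Of 11 RPT genes 6 were called higher, 1 lower and 4 not, where 31.2% of all genes were called higher and 32.4% lower. RPT5b (AT1G09100) led with 19.3, 21.9 and 25.1 CPM in control and 39.3, 43.2 and 39.5 CPM in heat (log2 0.79 ± 0.079, adjusted p = 9.02e-08), followed by RPT6a (0.72 ± 0.076, adjusted p = 1.71e-07) and RPT5a (0.59 ± 0.076, adjusted p = 1.83e-06). RPT3 (0.01 ± 0.092), RPT2b (0.01 ± 0.079), RPT1b (0.05 ± 0.12) and RPT4a (0.24 ± 0.11) were not called, at adjusted p from 0.0693 for RPT4a to 0.959 for RPT2b, while their copies RPT1a (0.47 ± 0.083) and RPT4b (0.35 ± 0.078) were called higher.

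RPT2a (AT4G29040) was the only member called lower (log2 -0.30 ± 0.087, adjusted p = 0.00611). RPT2a stood at 116, 118 and 105 CPM in the batch 1 controls, at 91.4, 86.3 and 76.3 CPM in the batch 2 controls and at 107, 88.5 and 82.5 CPM in heat. Thus 2 of the 3 heat libraries lay below all batch 1 controls, while heat overlapped the controls as a whole. Without the batch term the change was -0.09, and neither that fit nor one of the 2 Col-0 groups alone called it.

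Of 13 RPN genes 11 were called higher with TMM, where 31.2% of all genes were. With library size alone 2 of the 24 regulatory genes were called higher and 16 lower, where 1861 and 15306 of 22696 genes were. After RPN6 and RPN13 came RPN5a (AT5G09900), a scaffold subunit of the lid, which went from 83.1, 96.0 and 106 CPM to 183, 179 and 159 CPM (log2 0.79 ± 0.075, adjusted p = 4.24e-08), and RPN8a (AT5G05780), the partner of the deubiquitinase RPN11, which went from 70.6, 83.1 and 89.0 CPM to 144, 150 and 119 CPM (0.74 ± 0.097, adjusted p = 2.6e-06). The groups of both were apart. The remaining changes were smaller, among them RPN10, a ubiquitin receptor (0.39 ± 0.10, adjusted p = 0.00283), and RPN11 itself, which removes ubiquitin chains (0.30 ± 0.11, adjusted p = 0.0301). RPN1a (0.17 ± 0.11, adjusted p = 0.208) and RPN3a (0.18 ± 0.097, adjusted p = 0.112) were not called. RPN1 and RPN2 are the large scaffolds of the base, and RPN1b rose by 0.63 ± 0.095 (adjusted p = 1.18e-05), from 42.5, 52.4 and 61.9 CPM to 96.3, 85.0 and 79.5 CPM. The gene 426 bases upstream of RPN1b, AT4G28480, lies on the opposite strand, pointing away from it, and was also higher in Col-0 heat (log2 2.42). Near PBD1, AT3G22640 stands 862 bases upstream on the same strand (log2 2.97), and near PAE2, AT3G14300 stands 296 bases downstream on the opposite strand (log2 8.24). The neighbours of PBD1 and PAE2 had at most 56 and 62 counts in a Col-0 heat library, where PBD1 had at least 1799 and PAE2 at least 2424. AT4G28480 had 6250 to 8108 counts in Col-0 heat, where RPN1b had at least 3011. The strand setting is not given, and a part of this neighbour in the RPN1b counts was not tested.

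In eTK, subunit transcripts were also higher in heat, over a smaller range. Of the 47 genes 29 were called higher and 1 lower, against 27% and 28.7% of all genes tested. The median log2 change was 0.30, and -0.01 over all genes. By class 8 of 12 alpha, 7 of 11 beta, 6 of 11 RPT and 8 of 13 RPN genes were called higher. By library size alone 21 were called higher and 2 lower, where 4971 of all 22696 genes were called higher and 7378 lower.

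The largest rise in eTK was that of PAE1, from 40.8, 43.1 and 48.2 CPM (lowest, median and highest of 6) to 70.0, 68.7 and 59.7 CPM (log2 0.59 ± 0.097, adjusted p = 4.75e-05). RPN13 followed, from 29.5, 30.8 and 32.6 CPM to 44.5, 46.6 and 45.5 CPM (0.57 ± 0.078, adjusted p = 7.12e-06), and RPN5a (0.53 ± 0.075, adjusted p = 1.06e-05), PBB1 (0.53 ± 0.094, adjusted p = 9.81e-05) and RPN8a (0.51 ± 0.099, adjusted p = 0.000244). The heat libraries of PAE1 and RPN13 lay above all their controls. Of the other catalytic subunits PBA1 (0.48 ± 0.11) and PBB2 (0.45 ± 0.077) were called higher (adjusted p = 0.00113 and 6.53e-05), and PBE1 (0.15 ± 0.10) and PBE2 (0.14 ± 0.11) were not (adjusted p = 0.245 and 0.308).

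RPN6, first in Col-0, had the smallest called rise in eTK. It stood at 58.7, 74.5 and 79.8 CPM in control and at 81.3, 92.6 and 90.9 CPM in heat, which did not overlap, a log2 change of 0.20 ± 0.079 (adjusted p = 0.0434). RPT2b (AT2G20140) was called lower, from 48.5, 52.2 and 54.8 CPM to 46.4, 45.3 and 45.8 CPM (-0.22 ± 0.080, adjusted p = 0.0243), a call that was lost within batch 1 (-0.18) and without any single eTK heat library or eTK control replicate 3.

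Several pairs had 1 copy called in eTK and the other not: PAA1 but not PAA2 (0.49 against 0.20), PAB2 but not PAB1 (0.38 against 0.18), PAD1 but not PAD2 (0.36 against 0.00), PAF1 but not PAF2 (0.25 against 0.18), PBC2 but not PBC1 (0.34 against 0.18), RPT1a but not RPT1b (0.43 against -0.11), RPT5a but not RPT5b (0.47 against 0.15) and RPN1b but not RPN1a (0.28 against 0.24). The difference within a pair is tested below.

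Both lines were then set side by side. Of the 47 genes 28 were called higher in both, 10 in Col-0 alone (PAA2, PAB1, PAF2, PBC1, PBE2, PBF1, RPN2a, RPN2b, RPN7 and RPT5b), RPT4a in eTK alone, and 6 in neither (PAD2, PBE1, RPN1a, RPN3a, RPT1b and RPT3). RPT2a and RPT2b were called lower in 1 line each. The estimate was larger in Col-0 for 38 of 47. These counts do not test the difference between the lines. The shares of all genes called in both lines, or with a larger estimate in Col-0, are not given here. Of all genes 31.2% were called higher in Col-0 heat and 27% in eTK heat.

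The difference of the heat responses was tested as the interaction of line and heat. With TMM, 11 of the 47 genes rose less in eTK than in Col-0 by edgeR and none rose more (0 at an unadjusted p below 0.05, and 0 by DESeq2), where 12.6% of all genes were called lower and 12.5% higher. They were PAA2, PAB1, PAB2, PAF1, PBC2 and PBD1 of the core, and RPT5b, RPN1b, RPN2b, RPN6 and RPN13 of the regulatory particle. The median interaction was -0.15 over the 47 genes and 0.00 over all genes. Within batch 1 alone these medians were -0.07 and 0.00, and 3 core and 4 regulatory genes were called lower. Of all genes tested there, 2279 were called lower and 2166 higher. By library size alone the interaction called 1 gene, RPN6, lower and 37 higher. Of all 22696 genes, 1024 were then called lower and 14323 higher.

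RPN6 carried the largest difference, -1.39 ± 0.10 on the log2 scale (adjusted p = 5.7e-09, edgeR), and was called lower under every scaling (-0.76 with library size alone). PBC2 went from 31.5, 34.0 and 36.0 CPM in eTK control to 44.0, 47.8 and 45.2 CPM in eTK heat, against the rise past 2-fold in Col-0, an interaction of -0.74 ± 0.12 (adjusted p = 0.000104). That value was -0.11 and not called with library size alone. RPT5b stood at 14.4, 16.0 and 17.9 CPM in eTK control and at 19.8, 18.0 and 18.9 CPM in eTK heat, an interaction of -0.64 ± 0.11 (adjusted p = 0.000157), and -0.01 with library size alone.

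RPN2b (AT1G04810) and PAA2 (AT2G05840) followed. RPN2b stood at 50.1, 53.5 and 60.8 CPM in Col-0 control, at 84.6, 80.4 and 91.2 CPM in Col-0 heat, at 47.5, 55.3 and 66.0 CPM in eTK control and at 56.5, 55.4 and 62.0 CPM in eTK heat. Heat and control were apart in Col-0 and overlapped in eTK, with an interaction of -0.56 ± 0.097 (adjusted p = 0.000243). PAA2 stood at 70.0, 79.2 and 84.3 CPM and at 111, 152 and 122 CPM in Col-0, and at 78.1, 85.0 and 91.2 CPM and at 104, 94.5 and 87.6 CPM in eTK, with an interaction of -0.55 ± 0.13 (adjusted p = 0.00397). The sign turned for both with library size alone (0.069 and 0.081, neither called). For 6 other members, PAB1, PAB2, PAF1, PBD1, RPN1b and RPN13, it also turned, to values from 0.15 to 0.29.

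The other copies of these pairs were not called in the interaction: PAA1 was at -0.11, PAF2 at -0.31, PBC1 at -0.11, PBD2 at 0.05, RPT5a at -0.12, RPN1a at 0.07 and RPN2a at -0.05. Nor were the catalytic subunits, with PBA1 at -0.04 ± 0.14, PBB1 at -0.03 ± 0.12, PBB2 at -0.27 ± 0.10 (adjusted p = 0.0578), PBE1 at 0.00 ± 0.14 and PBE2 at -0.15 ± 0.15.

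**Figure D3:**
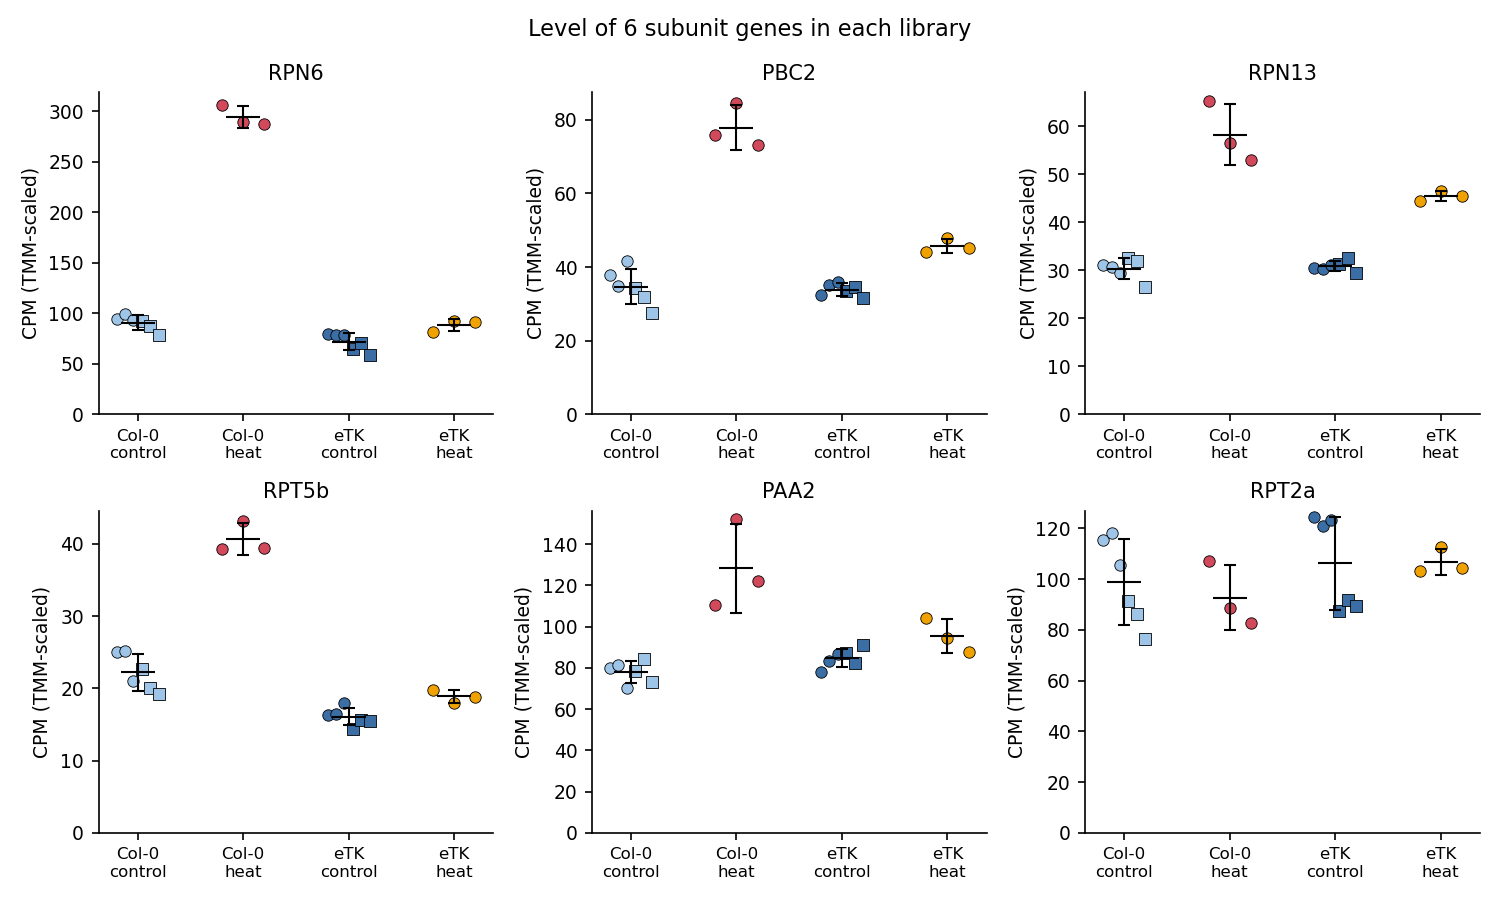
CPM of RPN6, PBC2, RPN13, RPT5b, PAA2 and RPT2a in each library (circles batch 1, squares batch 2), with the mean and SD of each group. RPN6 lies between 287 and 307 CPM in Col-0 heat and between 81.3 and 92.6 CPM in eTK heat, and RPT2a is lower in the batch 2 controls of both lines.

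Compared directly in heat, 13 genes were lower in eTK than in Col-0 by edgeR and none higher (2 at an unadjusted p below 0.05, RPT2a and RPT4a, and 0 by DESeq2; 4 without Col-0 heat replicate 1), where 23.1% of all genes were called lower and 23.3% higher. Of these, 10 were also called in the interaction. RPN6 was 3.33-fold lower (log2 -1.74 ± 0.088, adjusted p = 7.93e-12), and RPT5b 2.15-fold lower (-1.11 ± 0.087, adjusted p = 6.32e-09). PBC2 (-0.77 ± 0.097), RPN8a (-0.65 ± 0.11) and PAF1 (-0.64 ± 0.098) came next, with adjusted p of 3.27e-06, 6.99e-05 and 3.32e-05. The heat libraries of the lines did not overlap for any of these 5. They were picked by size in this same comparison, so this is no separate support. Scaled by library size alone, 2 were called lower, RPN6 (-1.10) and RPT5b (-0.47), and 40 higher. Of all 22696 genes, 1668 were then called lower and 15271 higher. Between the lines in heat 3 shoot markers were called higher and 2 lower in eTK, 3 root markers higher, and 1 seed marker higher and 1 lower, and their part in the result was not tested.

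In control the lines differed little in these genes: 3 were higher and 3 lower in eTK, where 13.4% of all genes were called higher and 13.8% lower. The 3 higher ones were core subunits. PAB2 stood at 42.6, 48.2 and 50.8 CPM in eTK against 33.5, 39.7 and 41.3 CPM in Col-0, without overlap (log2 0.31 ± 0.068, adjusted p = 0.00234), and PAC1 (0.20 ± 0.068, adjusted p = 0.033) and PBB2 (0.18 ± 0.058, adjusted p = 0.0255) differed less. Without eTK control replicate 5, 1 of these calls was left.

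The 3 lower ones were regulatory subunits. RPT5b stood at 14.4, 16.0 and 17.9 CPM against 19.3, 21.9 and 25.1 CPM (log2 -0.47 ± 0.061, adjusted p = 1.1e-05), and RPN8a at 54.9, 60.6 and 68.0 CPM against 70.6, 83.1 and 89.0 CPM (-0.42 ± 0.075, adjusted p = 0.000288). Neither overlapped between the lines. RPN6 was lower by a smaller margin and overlapped, with a log2 difference of -0.34 ± 0.060 (adjusted p = 0.000272). All 3 were called lower in eTK in heat as well. Within batch 2 RPN8a was at -0.28 and not called. A test of line by batch in the 12 control libraries, added after the data were seen, called none of the 47 genes by edgeR (3 at an unadjusted p below 0.05; DESeq2 was not run on it), where it called 5.95% of 22443 genes tested. Most of the 47 estimates were nonetheless positive (from -0.42 for RPT1b to 0.29 for RPN8a). The median log2 difference of batch 2 from batch 1 over the 47 genes was -0.20 in Col-0 controls alone and -0.10 in eTK controls alone. The batch term of the main fit is shared by both lines.

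The batches differed as well. In control 22 of the 47 were lower in batch 2 and none higher (none at an unadjusted p below 0.05, and 0 by DESeq2), where 19.3% of all genes were called lower and 17.1% higher, and 15 of the 24 regulatory genes were among them against 7 of the 23 core genes. RPT2a led, from a mean of 113 CPM in batch 1 to 84.7 CPM in batch 2 in Col-0 and from 123 to 89.4 CPM in eTK (log2 -0.44 ± 0.065, adjusted p = 3.99e-05). RPT3 (-0.35 ± 0.070), RPN1a (-0.35 ± 0.086), RPN3a (-0.30 ± 0.074) and RPN12a (-0.29 ± 0.065) followed, with adjusted p from 0.000743 to 0.00377. In eTK controls alone the number was 6, and without Col-0 control replicate 6 it was 14. Shoot markers differed between the batches too: 4 of 6 shoot markers were called lower in batch 2, LHCB1.1 by -3.81 ± 0.13, whereas RCA was called higher (0.93 ± 0.089), and their part in the result was not tested.

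The ratio of the copies of a pair does not depend on scaling, since both are counted in the same library. All 16 pairs with both copies among the 47 genes were compared, heat against control in each line and eTK against Col-0 in control, by 48 two-sided exact permutation tests with Benjamini-Hochberg adjustment over them. The heat libraries were of batch 1 and the controls of both batches, and the permutations took no account of batch. None passed for heat. In eTK heat the RPT2 log2 ratio changed by 0.19 against all controls and by -0.03 within batch 1. The smallest p that 6 against 3 libraries allow is 0.0238, which became 0.0672 after adjustment, and 6 pairs in Col-0 and 8 in eTK had an unadjusted p below 0.05. Coding sequences of the copies were 80.7% (RPT5) to 94.4% (RPT6) identical where aligned, and reads from identical stretches, at most 104 bases long, could be split or lost depending on the counting, whose setting is not given in the sources used here.

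Several ratios nonetheless stood at that smallest p in heat. PBC1 made up 66.7% ± 1.7 (SD, n = 6) of the PBC level per length in Col-0 control and 54.1% ± 4.0 (n = 3) in Col-0 heat, against 67.6% ± 1.2 and 65.8% ± 0.053 in eTK. The log2 ratio of PBC1 to PBC2 counts changed by -0.77 in Col-0 (exact p = 0.0238, adjusted 0.0672) and by -0.12 in eTK (the same values). Within batch 1 these changes were -0.79 and -0.18. RPN1a made up 72.0% ± 1.4 of RPN1 in Col-0 control and 65.6% ± 2.6 in heat, a change in log2 ratio of -0.43 (exact p = 0.0238, adjusted 0.0672), against 73.0% ± 1.2 and 73.2% ± 0.89 in eTK (0.01, exact p = 0.857). Within batch 1 the RPN1 changes were -0.48 in Col-0 and -0.05 in eTK.

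RPT6, RPN2 and RPT5 show other patterns. RPT6a made up 63.2% ± 1.5 of its pair in Col-0 control and 68.5% ± 2.2 in heat (log2 ratio change 0.34, exact p = 0.0238), against 63.1% ± 1.8 and 61.7% ± 1.1 in eTK (-0.09, exact p = 0.238). RPN2a made up 67.8% ± 0.97 and 63.8% ± 4.1 in Col-0 (-0.25, exact p = 0.0952) and 68.2% ± 1.6 and 72.1% ± 1.0 in eTK (0.27, exact p = 0.0238). Within batch 1 the changes in Col-0 and eTK were 0.40 and -0.02 for RPT6, and -0.30 and 0.33 for RPN2. RPT5a made up 82.5% ± 0.71 and 80.8% ± 1.9 in Col-0, and 86.9% ± 0.75 and 89.5% ± 0.48 in eTK. RPT5b was thus the minor copy in all 4 groups.

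**Figure D4:**
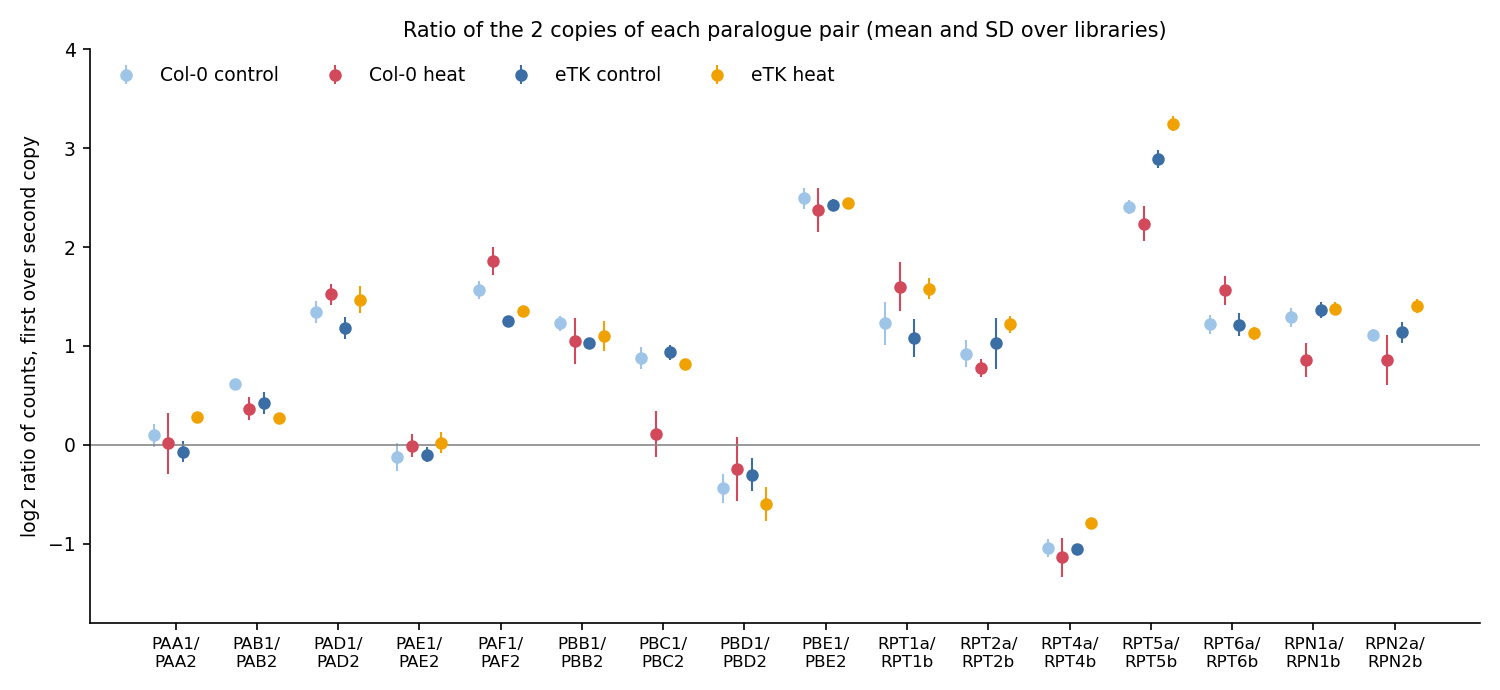
Log2 ratio of the counts of the first to the second copy of each of the 16 pairs, as the mean and SD over libraries (6 per control group, 3 per heat group). The PBC1 to PBC2 ratio falls from 0.88 to 0.11 in Col-0 heat and from 0.94 to 0.82 in eTK heat.

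Between the lines in control 4 of the 16 pairs passed, PAB, PAF, PBB and RPT5, each at the smallest p that 6 against 6 libraries allow (exact p = 0.00216, adjusted 0.026). The log2 ratio changed from 2.41 ± 0.072 to 2.89 ± 0.094 for RPT5a over RPT5b, from 1.56 ± 0.093 to 1.25 ± 0.022 for PAF1 over PAF2, from 1.23 ± 0.077 to 1.03 ± 0.032 for PBB1 over PBB2, and from 0.61 ± 0.046 to 0.42 ± 0.11 for PAB1 over PAB2. In batch 1 these changes were 0.50, -0.37, -0.23 and -0.10, and 3 against 3 libraries cannot go below an exact p of 0.1.

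With TMM, the sums of the core and of the regulatory genes were both higher in heat than in control in each line, without overlap of libraries. The summed level of the core went from 1439 ± 140 CPM (SD, n = 6) in Col-0 control to 2160 ± 230 CPM (n = 3) in heat, and that of the regulatory genes from 1932 ± 187 to 2839 ± 302 CPM. In eTK the core went from 1478 ± 70.4 to 1948 ± 59.8 CPM and the regulatory genes from 1936 ± 154 to 2479 ± 55.6 CPM. The log2 ratio of regulatory to core went from 0.43 ± 0.058 to 0.39 ± 0.051 with heat in Col-0 and from 0.39 ± 0.075 to 0.35 ± 0.053 in eTK, over controls of both batches. Within batch 1 it went from 0.44 ± 0.071 (SD, n = 3) to 0.39 ± 0.051 in Col-0, with overlapping libraries, and from 0.45 ± 0.043 to 0.35 ± 0.053 in eTK, where all 3 heat libraries (0.30 to 0.40) lay below the 3 controls (0.42 to 0.50). The exact permutation p, two-sided, was 0.4 in Col-0 and 0.1 in eTK. With 3 against 3 libraries it cannot go below 0.1, so this test could not pass and decides nothing. The eTK controls of batch 2 lay at 0.32 to 0.33, within the range in heat. By share of all counts, without TMM, the 47 genes were lower in Col-0 heat than in Col-0 control on average, with overlapping libraries, and higher in eTK heat than in all eTK controls.

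**Figure D5:**
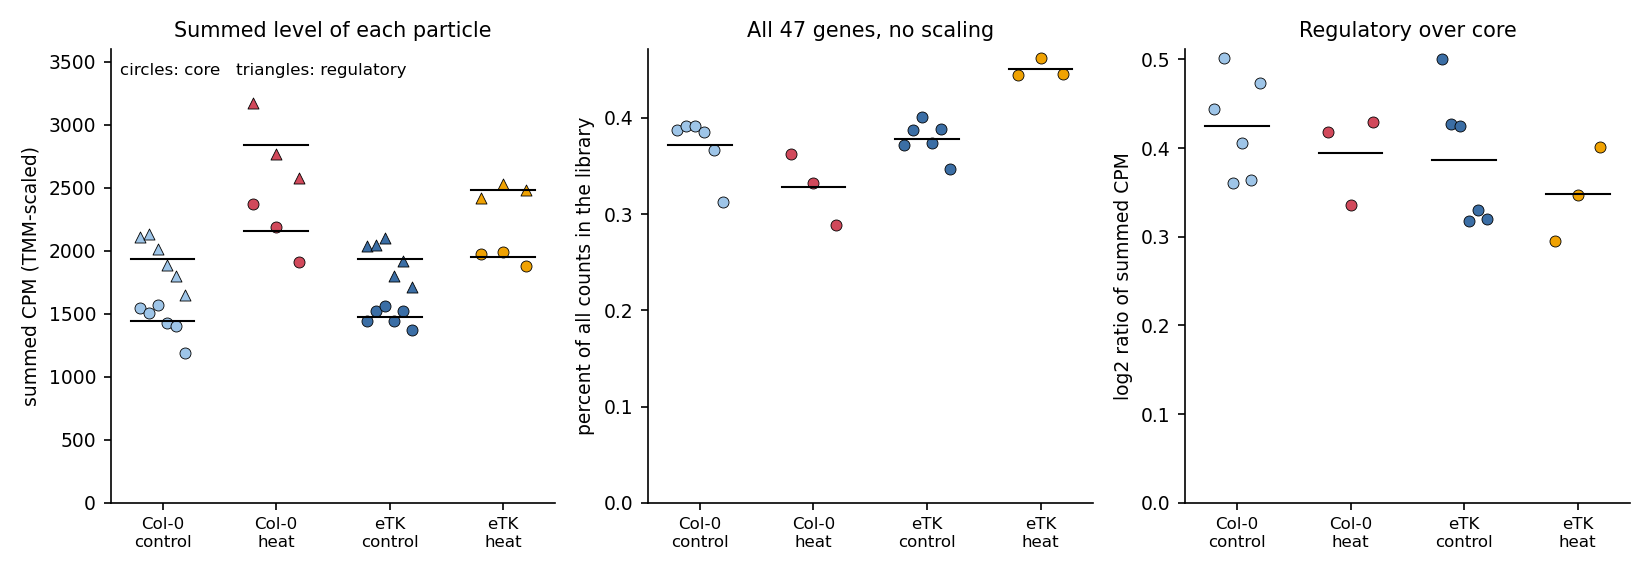
Summed CPM of the core (circles) and regulatory genes (triangles), the percent of all counts held by the 47 genes without TMM scaling, and the log2 ratio of regulatory to core sums, per library, with lines at group means. With TMM both sums are higher in heat in both lines, whereas the unscaled share is 0.328% in Col-0 heat against 0.372% in control.

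Other genes of the pathway were taken from lists. Of 8 further subunit genes, 4 were called higher and 1 lower in Col-0 heat, where 31.2% and 32.4% of all genes were, and 2 higher and 1 lower in eTK, where 27% and 28.7% were. With library size alone none of the 8 was called higher and 5 were called lower in Col-0 heat, and 2 higher and 2 lower in eTK. Of all 22696 genes, 1861 were then called higher and 15306 lower in Col-0 heat, and 4971 and 7378 in eTK. DSS1A, a small lid subunit, rose by 0.78 ± 0.082 in Col-0 (adjusted p = 1.61e-07) and by 0.32 ± 0.083 in eTK (adjusted p = 0.00295), DSS1B by 0.46 ± 0.12 in Col-0 alone (adjusted p = 0.0019, interaction -0.72 ± 0.15, adjusted p = 0.00166), and RPN5b by 0.62 ± 0.10 and 0.50 ± 0.10 (adjusted p = 3.32e-05 and 0.000457). RPN3b, unlike most subunits, was lower in heat in both lines (-0.35 ± 0.10 and -0.50 ± 0.10, adjusted p = 0.00644 and 0.000583). RPN8b did not change in heat past the threshold and, like RPN8a, was lower in eTK in control (-0.68 ± 0.086, adjusted p = 7.74e-06).

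Of 11 assembly and associated factors, 7 were called higher and 1 lower in Col-0 heat, where 31.2% and 32.4% of all genes were. In eTK 8 were called higher and 1 lower, where 27% and 28.7% were. UMP1A, the maturation chaperone of the core, rose by 0.94 ± 0.079 in Col-0 and 0.63 ± 0.079 in eTK (adjusted p = 8.28e-09 and 2.34e-06), and the proteasome-bound deubiquitinase UBP6 by 0.79 ± 0.072 and 0.66 ± 0.072 (adjusted p = 2.68e-08 and 4.49e-07). PTRE1, the relative of a mammalian proteasome regulator, rose by 0.82 ± 0.077 and 0.66 ± 0.076, and NAS2, a base assembly chaperone by its yeast name, by 0.55 ± 0.10 and 0.48 ± 0.10. PA200, an alternative cap of the core, was lower (-0.51 ± 0.089 and -0.39 ± 0.087). In Col-0 heat 1 of the 11 was called higher and 7 lower with library size alone, where 1861 and 15306 of 22696 genes were.

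Of the 2 regulators, NAC078 stood at 290, 337 and 396 CPM in Col-0 heat, above all controls, and rose by 2.64 ± 0.087 (adjusted p = 6.8e-15). In eTK it rose by 0.36 ± 0.086 (adjusted p = 0.00158), to 61.2, 63.5 and 67.3 CPM, an interaction of -2.28 ± 0.12 (adjusted p = 1.5e-11) and of -1.65 with library size alone. NAC053 was not called in either line (0.05 ± 0.20 and 0.35 ± 0.19).

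Of 16 ubiquitin, activating enzyme and shuttle genes, 14 were called higher in each line, where 31.2% of all genes were in Col-0 and 27% in eTK. With library size alone 6 were called higher and 8 lower in Col-0 heat, and 13 higher in eTK heat. Of all 22696 genes, 1861 were then called higher and 15306 lower in Col-0 heat, and 4971 and 7378 in eTK heat. CDC48B, of the family of segregase ATPases that deliver ubiquitinated proteins, rose by 5.29 ± 0.24 in Col-0 and 1.29 ± 0.22 in eTK, the ubiquitin genes UBQ14 by 3.15 ± 0.079 and 1.72 ± 0.077 and UBQ10 by 1.80 ± 0.094 and 1.34 ± 0.093, and CDC48A by 1.26 ± 0.072 and 0.25 ± 0.072. In the interaction 4 of the 16 were called lower and 1 higher, where 12.6% and 12.5% of all genes were. It was -4.00 ± 0.31 for CDC48B and -1.43 ± 0.10 for UBQ14 (adjusted p = 1.41e-08 and 3.14e-09). The ubiquitin gene UBQ11 went the other way, with a rise of 0.90 ± 0.076 in Col-0 and 1.41 ± 0.076 in eTK (interaction 0.51 ± 0.10, adjusted p = 0.000959). CDC48B, UBQ14 and CDC48A were called lower with library size alone as well, whereas 11 of the 16 were then called higher. Of all 22696 genes this scaling called 14323 higher in the interaction.

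The COP9 signalosome, a relative of the proteasome lid that removes NEDD8 from ubiquitin ligases, had 9 of 10 genes called higher in Col-0 heat and 6 of 10 in eTK. Of all genes 31.2% were called higher in Col-0 heat and 27% in eTK heat. Its subunit CSN7 rose by 3.94 ± 0.094 in Col-0 (adjusted p = 5.8e-17) and by 0.45 ± 0.092 in eTK (adjusted p = 0.000488), an interaction of -3.49 ± 0.13 (adjusted p = 7.31e-14), and CSN5B had an interaction of -1.01 ± 0.18 (adjusted p = 0.000334). CSN5B rose by 1.16 ± 0.14 in Col-0, and CSN8 by 0.89 ± 0.088. In the other 6 called genes the rise lay between 0.24 (CSN5A) and 0.58 (CSN4). With library size alone 2 of the 10 were called higher and 6 lower in Col-0 heat, where 1861 and 15306 of 22696 genes were.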

How the data were processed

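The authors deposited 1 table of raw read counts per gene, made from total RNA of whole seedlings. Tools named in the submitters' processing notes are STAR 2.7.9a, fastp 0.24.0, Subread 2.0.6 and featureCounts. The genome build, annotation, strand setting and handling of multi-mapping reads are not given in the sources used here. Of 54 samples, 36 of Marchantia polymorpha were not analysed here. Between 75.4% and 83.3% of non-zero counts in a library were even, as would arise if both mates of a fragment were counted.

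Groups follow the labels for genotype and treatment. No label says that replicates were separate cultures, and a p-value thus reflects spread between samples that may be technical only. All 36 replicate pairs within groups differed beyond sampling noise (chi-square per degree of freedom of at least 7.12).

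Counts were tested with edgeR 4.0.16 in R 4.3.3 (filterByExpr, TMM, robust glmQLFit, glmQLFTest) in 1 fit of 18 libraries with terms for group and batch. The common dispersion was 0.0244. The SE is the absolute log2 change divided by the square root of F. Alternatives were DESeq2 1.42.0, other scalings, other filters, halved counts, subsets, a replicate block and leaving out each library. The tests were checked on simulated data. Named genes are all 47 by count, and in full the 5 largest called rises and falls of a comparison, split pairs and the catalytic subunits. Of pathway lists the called genes with the largest changes are given. The genes and lists were chosen with earlier results of these data known. Positions, exon lengths and sequence come from TAIR10.1, to which 27445 identifiers matched. With TAIR10.1, 16 of the 47 genes overlap another gene of the table, 3 of them on the same strand (PBB1, RPT3 and RPN7). Replicate numbers did not pair samples (correlations of deviations from -0.217 to 0.232).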

Additional observations from a re-analysis of the deposited data

Results flagged for a closer look

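In Col-0 control, replicate 6 lay apart from the other 5 libraries for both copies of PAF, at 64.9 CPM for PAF1 and 24.5 CPM for PAF2. These are 2 of 94 groups of control values looked at (2.13%), and chance would set apart about 5%. Replicate 6 was also the lowest Col-0 control for the summed core genes, at 1188 CPM against 1400 to 1567 in the others. For the regulatory genes it stood at 1650 CPM against 1802 to 2131. Its low values were thus not particular to PAF, and the groups do not vary independently.

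For 11 genes the heat response differed between Col-0 and eTK by the interaction term of the edgeR fit, with TMM scaling. The log2 interaction was -1.39 for RPN6, -0.74 for PBC2, -0.64 for RPT5b, -0.56 for RPN2b, -0.55 for PAA2, -0.48 for PAF1, -0.44 for PAB2, -0.44 for PBD1, -0.38 for RPN13, -0.35 for RPN1b and -0.34 for PAB1. With library size alone RPN6 alone of these was still called lower.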

How the results depend on the processing

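Scaling decided most counts. With library size alone, 3 members were called higher and 26 lower in Col-0 heat, 2 lower in eTK heat, 37 higher and 1 lower in the interaction, 40 higher and 2 lower between the lines in heat, and 8 lower in batch 2. Of all 22696 genes, this scaling called 15306 lower in Col-0 heat, 14323 higher in the interaction and 15271 higher between the lines in heat. Of 121 called values over the 6 comparisons, the sign then turned for 41: 25 in Col-0 heat (17 of them called lower), 8 in the interaction and 8 between the lines in heat. Among the genes given in full it turned in Col-0 heat for PAD1 (-0.25), PBA1 (-0.20), PBB1 (-0.16), PBE2 (-0.43), RPN1b (-0.083), RPT1a (-0.25) and RPT4b (-0.37), in the interaction for PAA2 (0.081), PAF1 (0.15), PBD1 (0.19), RPN1b (0.28) and RPN2b (0.069), and between the lines in heat for PAA2 (0.21), PAB1 (0.41), PBD1 (0.28), RPN1b (0.27), RPN2b (0.078) and RPT2b (0.40). The number called lower in Col-0 heat was 0 without a batch term and with the 2 Col-0 groups only. In eTK heat it was 0 with RLE factors, within batch 1 and without a batch term, and 2 with the 2 eTK groups only. Within batch 1 the interaction called 7 lower. The lines in control had 1 gene higher within batch 1, within batch 2 and without a batch term. In eTK controls alone 6 were lower in batch 2. No pair ratio could pass between the lines within batch 1, where 3 against 3 libraries cannot go below an exact p of 0.1. For the other counts, apart from those of scaling, the cause was not tested.

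Without 1 library at a time the numbers ran from 31 to 40 higher and 1 to 1 lower in Col-0 heat, from 22 to 33 and 0 to 2 in eTK heat, from 0 to 1 and 8 to 15 in the interaction, from 1 to 4 and 3 to 4 between the lines in control, from 0 to 4 and 9 to 17 between them in heat, and from 14 to 25 lower in batch 2. The extremes came without Col-0 heat replicate 1 (31 higher in Col-0 heat, 4 higher between the lines in heat), Col-0 control replicate 6 (14 lower in batch 2) and eTK control replicate 5 (1 higher in control). The 4 pair ratios called in control became 0 without any control library, where fewer libraries allow only larger p. The regulatory to core ratio changed by -0.048 to -0.00090 in Col-0 and by -0.065 to -0.013 in eTK. The replicate block, whose numbers pair no samples, gave 38 higher and 1 lower in Col-0 heat, 29 and 1 in eTK heat, 0 and 10 in the interaction, 3 and 3 in control and 0 and 11 between the lines in heat. Of the 121 called values, 65 belong to genes given in full in that comparison, and of their 1708 alternative values, 1572 kept direction and call, 118 lost the call and 18 turned.

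RPN6 kept its direction and call in heat in Col-0 (0.87 to 1.70), in the interaction (-1.46 to -0.76) and between the lines in heat (-1.76 to -1.10) under all alternatives run. Counts of 620 or more per member make counting error small, so the spread between libraries sets the limit.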
